A study of Mus musculus with 18 samples.

Results

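The 8 genes described here, Cst7, Gpnmb, Spp1, Lgals3, Lgals1, Fabp5, Cd63 and Cd9, belong to the late programme of disease-associated microglia (DAM). They were taken by symbol from the gene table of the series, which lists 53465 genes, and each symbol occurred there in a single row. All 8 were measured in all 18 libraries. The libraries were made from microglia and from macrophages sorted out of the contused spinal cords of the same 9 adult female C57BL/6J mice, aged 8 to 10 weeks, with 3 mice in each treatment. Mice 1, 2 and 3 received PBS, mice 5, 6 and 7 received 100 ng of recombinant IL-13 (rIL-13) and mice 8, 9 and 10 received 100 ng of recombinant IL-4 (rIL-4), in each case as an intraspinal injection 48 h after spinal cord injury (SCI), and cells were collected 24 h later. Every group was therefore injured and injected, and there is no uninjured group. The cells were separated by their CD45 level within the CD11b+ F4/80+ gate, so that the names microglia and macrophages stand for CD45low and CD45high gates and not for traced lineages.

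DAM were described in the brain in models of neurodegeneration as microglia that lose their homeostatic genes and then, in a later step that depends on the receptor TREM2, gain genes of phagocytosis, lysosomes and lipid handling. The genes studied here mark that later step, and foamy or lipid-loaded macrophages outside the brain also express many of them. IL-4 and IL-13 share the receptor chain IL-4Ra and signal through the transcription factor STAT6, which drives the alternative activation genes of macrophages. The comparisons below ask how each cytokine changed these genes in each cell type, and whether the cell types differed in that change.

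The libraries held 35961305 to 45849829 counts, with a median of 39570356. Since the cDNA was amplified from 0.12 to 10 ng of RNA without molecular identifiers, counts are not independent molecules, and the precision rests on the 3 mice of each group. The injected cytokines were visible in all treated libraries: Retnla, a classical target of IL-4, stood at 0.171 counts per 1000000 (CPM) or less in each PBS library and between 38.2 and 1253 CPM in every treated library. Markers of other cell types were detected in both gates. The summed level of 10 microglia markers was 6551 to 11892 CPM in PBS microglia and 2942 to 4339 CPM in PBS macrophages, and after rIL-4 it was 2712 to 4617 CPM in microglia and 498 to 876 CPM in macrophages. The sum of 10 fibroblast and pericyte markers was 2661 to 3827 CPM in PBS microglia, 1383 to 8397 CPM in rIL-13 microglia and 239 to 1632 CPM in rIL-4 microglia, and it was 0.487 to 10.3 CPM in macrophages. With rIL-4 in microglia their median log2 fold change was -2.08, and 1 of 10 was called in edgeR (2.22% of all genes), 6 at an unadjusted p under 0.05 (16.4%) and 4 by DESeq2 (7.79%). Spp1 and Cd9 had lower means than after PBS in rIL-4 microglia, where the fibroblast sum was below the PBS range. They also had lower means in rIL-13 microglia, where that sum lay on both sides of the PBS range, and in the treated macrophages. The part of fibroblasts in these levels was not tested. The sum of 10 endothelial markers was 1180 to 2533 CPM in PBS microglia, 2013 to 3850 CPM in rIL-13 microglia and 2523 to 3456 CPM in rIL-4 microglia, against 47.4 to 430 CPM in macrophages, and with rIL-4 in microglia 0 of 10 were called in edgeR, 4 at an unadjusted p under 0.05 and 3 by DESeq2. The macrophage sum does not stand for the whole list. With rIL-4 in macrophages edgeR called 2 of the 10 higher and 4 lower (14.0% of all genes called), with a median log2 fold change of -1.88. Mitochondrial transcripts made up 6.35 to 12.2% of counts in rIL-4 microglia against 2.18 to 3.53% in the other microglial libraries, and the number of genes with a count was 15193 to 15626 against 16132 to 18371. Their part in the results below was not tested. In bulk libraries such as these, a lower level can come from fewer cells of a type or from less RNA per cell, and these cannot be told apart.

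After PBS, Spp1 had the highest level of the 8 genes in both cell types, and the order of the others differed between them. Levels between genes are given as CPM divided by the exon length in kb. Spp1, which encodes the secreted phosphoprotein osteopontin, reached 6838 ± 2352 CPM per kb (SD, n = 3) in PBS microglia and 29485 ± 2417 in PBS macrophages. In microglia it was followed by Lgals1 at 321 ± 80.1, Cd9 at 267 ± 39.5, Lgals3 at 201 ± 64.7 and Cd63 at 170 ± 7.50 CPM per kb, and each of these overlapped its neighbour in the order within their SDs. Fabp5 at 68.7 ± 18.01 and Cst7 at 60.1 ± 9.93 came next, also within their SDs, and Gpnmb was lowest at 28.4 ± 5.13 CPM per kb. With the longest transcript as the length, Cd9 ranked before Lgals1 in microglia. In macrophages Lgals3, at 1706 ± 283 CPM per kb, followed Spp1, then came Gpnmb at 871 ± 98.6, Lgals1 at 860 ± 148 and Fabp5 at 678 ± 104, neighbours within their SDs, and the tetraspanins Cd9, at 328 ± 11.3, and Cd63, at 255 ± 22.1, stood lower. Cst7 was lowest in macrophages, at 13.9 ± 4.47 CPM per kb. Taken as a sum, the 8 genes accounted for 5.80 ± 0.470% of all counts in PBS macrophages, 4.53% being Spp1 alone, and for 1.55 ± 0.508% in PBS microglia. Their share was 3.03 ± 1.17% in rIL-13 macrophages and 3.25 ± 0.589% in rIL-4 macrophages, and 0.690 ± 0.0569% and 0.907 ± 0.142% in the corresponding microglia.

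**Figure D1:**
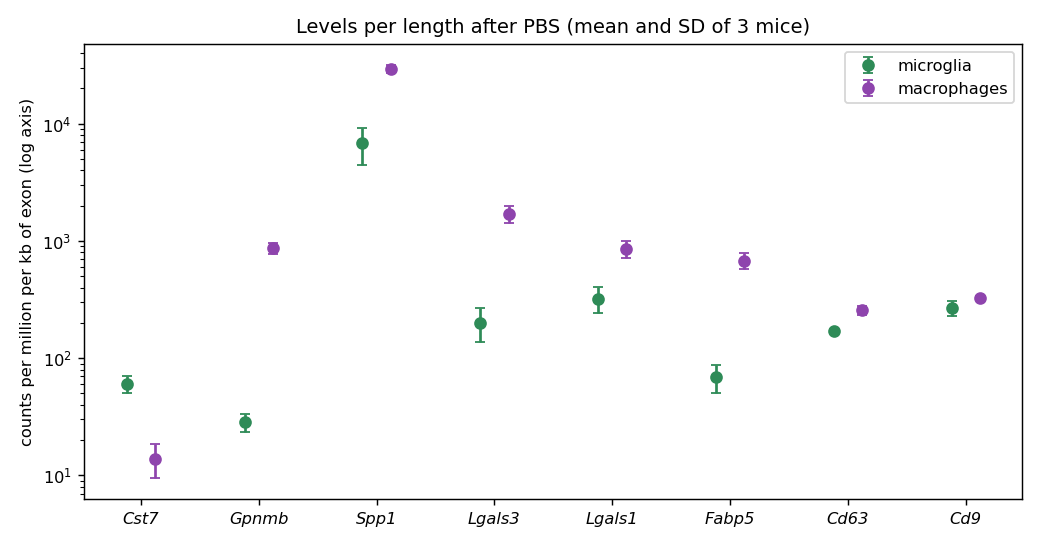
Levels of the 8 genes after PBS, in CPM per kb of exon on a log axis, with points for the mean and bars for the SD of 3 mice, in microglia (green) and macrophages (purple). Spp1 is the highest in both, Gpnmb is lowest in microglia at 28.4, and Cst7 is lowest in macrophages at 13.9.

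The genes lie on 7 chromosomes, so that no local cluster links them, with Gpnmb (chr6:49036546-49070929, plus strand) and Cd9 (chr6:125460266-125494791, minus strand) on the same chromosome of the GRCm38 build. The others are Cst7 (chr2:150570415-150578944), Fabp5 (chr3:10012548-10016607), Spp1 (chr5:104435118-104441050), Cd63 (chr10:128900989-128912822), Lgals3 (chr14:47367751-47386160) and Lgals1 (chr15:78926725-78930465). Reads could be split between a gene and its copies: Cd63-ps held 143 to 318 counts per library, Cd9-ps and Fabp5l2 at most 4 and 5, and both Lgals1 pseudogenes 0. Gm42793, which overlaps Spp1 on the same strand, held at most 3720 counts in a library.

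RefSeq promoter windows (GRCm38.p6), from 250 bases before to 50 bases after the start site, were matched for 6 of the 8 genes and gave 7 windows, with 2 for Spp1. They were searched on both strands for TTCNNNNGAA (the STAT6 form), TTCNNNGAA (the form of other STAT factors), CACGTG (the E-box of lysosomal genes), CATGTG (the M-box), TGANTCA (the AP-1 form), AGGAAG (the core of PU.1) and TATAAA (the TATA box). The Lgals3 window, chr14:47373610-47373909 on the plus strand, is shown because Lgals3 had the clearest response to rIL-4. It holds the STAT6 form at -238 and again at -225 relative to the start, without overlap, and this form was present in 6.95% of 32851 mouse promoter windows. None of the other windows of these genes holds it. The windows of Spp1 (chr5:104434861-104435160, plus strand) and Gpnmb (chr6:49036268-49036567, plus strand) are shown beside it because these genes had lower levels in treated cells. That of Gpnmb holds the AP-1 form at position 9 (7.81% of windows hold it), and that of Spp1 holds none of the STAT, AP-1, E-box or M-box forms. Capitals mark the STAT6 and AP-1 forms.
Lgals3: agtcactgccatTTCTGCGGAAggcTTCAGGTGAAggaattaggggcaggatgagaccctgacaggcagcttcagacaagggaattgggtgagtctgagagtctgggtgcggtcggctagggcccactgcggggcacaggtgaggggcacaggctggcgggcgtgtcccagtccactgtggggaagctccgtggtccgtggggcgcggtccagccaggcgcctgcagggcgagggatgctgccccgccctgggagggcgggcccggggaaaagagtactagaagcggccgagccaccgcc
Spp1: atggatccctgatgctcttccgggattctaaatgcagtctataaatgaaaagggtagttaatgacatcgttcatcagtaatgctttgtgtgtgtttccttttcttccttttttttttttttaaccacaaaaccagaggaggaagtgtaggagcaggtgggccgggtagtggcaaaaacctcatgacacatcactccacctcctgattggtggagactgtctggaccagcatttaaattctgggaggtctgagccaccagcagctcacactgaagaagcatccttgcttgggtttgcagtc
Gpnmb: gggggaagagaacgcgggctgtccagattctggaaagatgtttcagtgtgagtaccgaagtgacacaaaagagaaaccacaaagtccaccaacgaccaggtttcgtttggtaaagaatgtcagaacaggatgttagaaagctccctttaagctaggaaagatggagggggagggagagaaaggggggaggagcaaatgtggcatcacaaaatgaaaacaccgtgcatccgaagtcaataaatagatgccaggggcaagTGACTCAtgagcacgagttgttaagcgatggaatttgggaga
A match of letters is a description and no evidence of binding. The Cst7 window also holds the AP-1 form, at -6, and that of Cd9 holds the M-box at -38 (14.2% of windows hold it).

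In microglia, Lgals3, a lectin, and Fabp5, a lipid chaperone, rose with rIL-4 and Spp1 fell with rIL-13 in edgeR, and the Spp1 change with rIL-4 was called or not depending on the setting. In edgeR's quasi-likelihood test with Benjamini-Hochberg adjustment over all genes, rIL-4 against PBS changed 2 of the 8 genes, both upward, where 345 of 15566 genes tested, 2.22%, were called at an adjusted p under 0.05. In rIL-13 against PBS, 1 of the 8 was called, downward, against 0.366% of all genes, and in rIL-4 against rIL-13 it was 0 of 8, against 0.0385%. Of the 8 genes, 6, 4 and 4 had an unadjusted p under 0.05 in these 3 comparisons, beside 16.4%, 7.76% and 11.4% of all genes. DESeq2 called 5, 2 and 2 of them, beside 7.79%, 2.05% and 3.50% of all genes, adding Spp1, Lgals1 and Cd9 with rIL-4 and Lgals3 with rIL-13, and in the last comparison it called Lgals3 and Fabp5, both higher in rIL-4 microglia. The median log2 fold change of the 8 genes was 0.21 with rIL-4 and 0.14 with rIL-13, beside -0.06 and -0.0008 for all genes. Both cytokines were compared with the same 3 PBS mice.

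**Figure D2:**
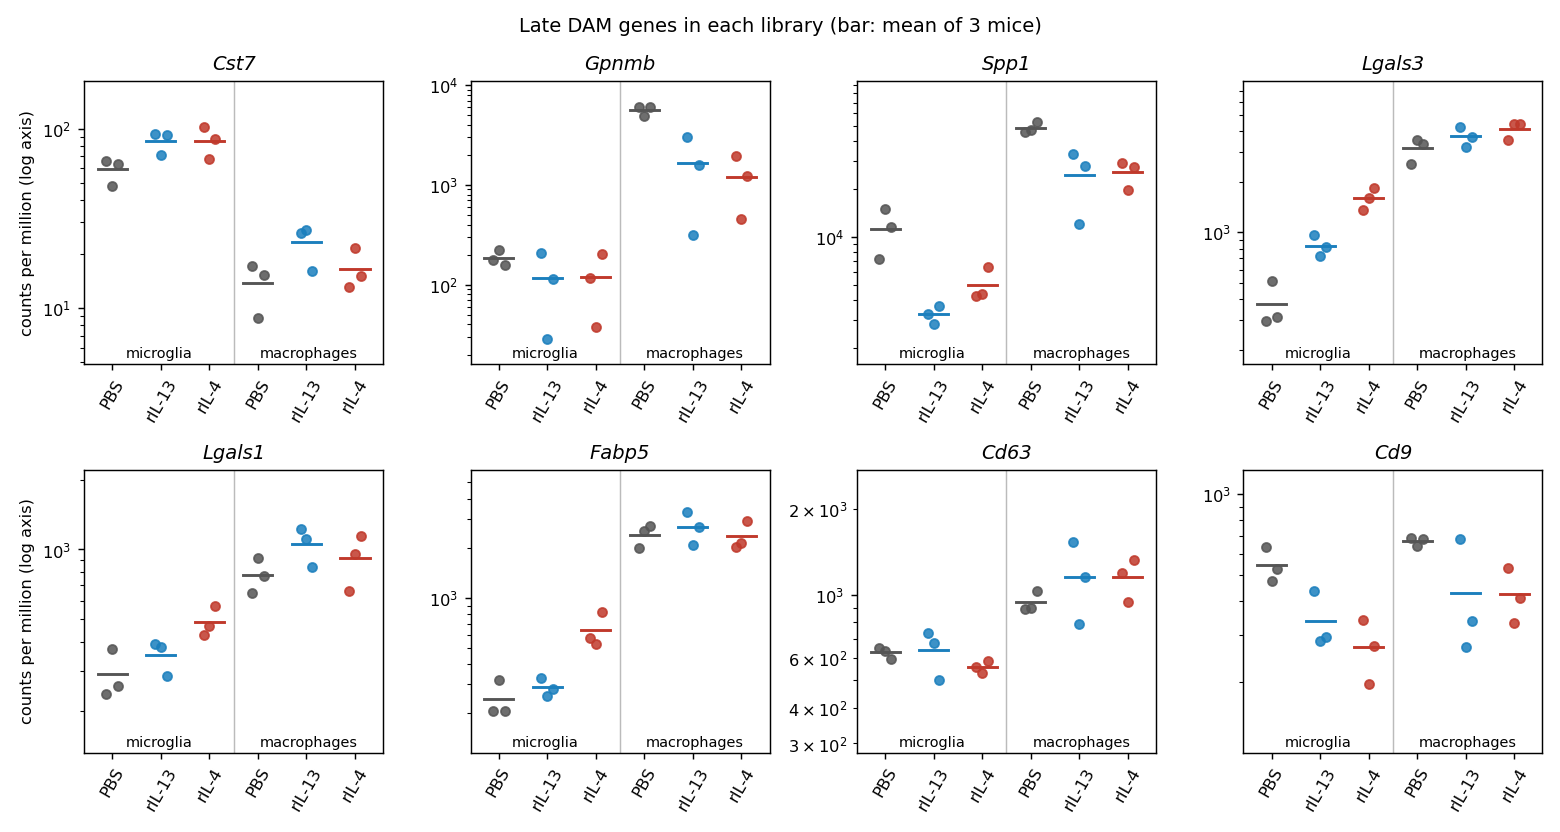
Level of each gene in every library, in CPM on log axes, with 1 point per mouse and a bar for the mean of 3 mice (PBS grey, rIL-13 blue, rIL-4 red), microglia on the left and macrophages on the right of each panel. Lgals3 and Fabp5 are highest among microglia in the rIL-4 libraries, every treated library of Spp1 is below the PBS libraries of its cell type, and Gpnmb spreads from 28.8 to 207 CPM in treated microglia and from 317 to 3049 CPM in treated macrophages.

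**Figure D3:**
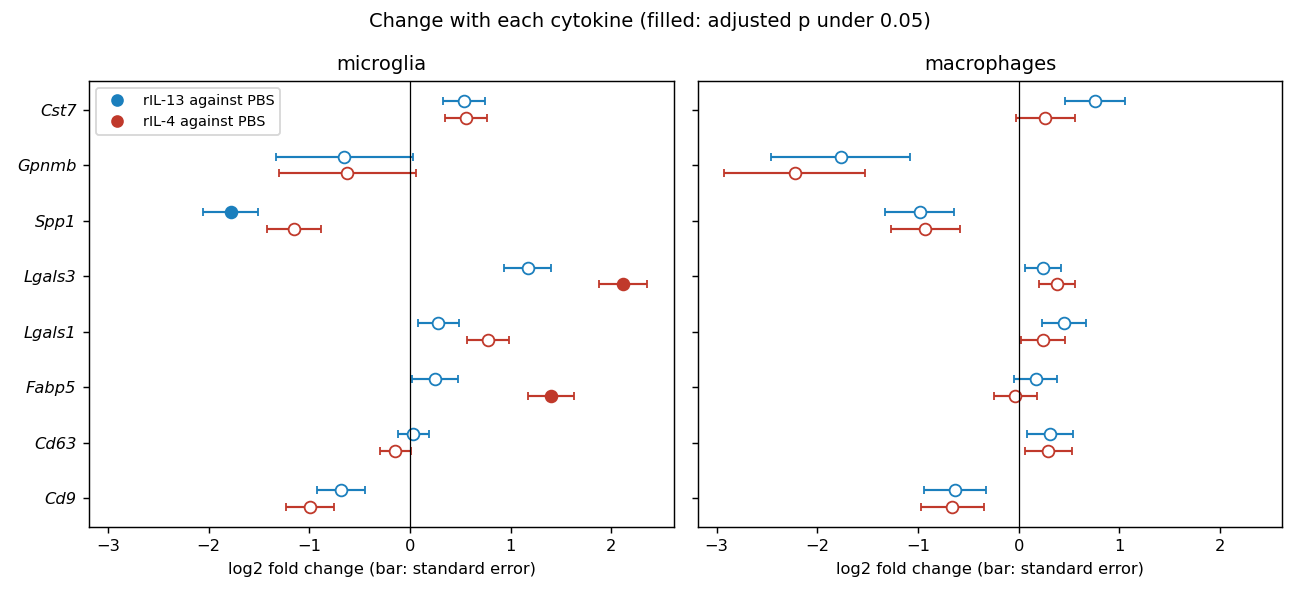
Log2 fold change of each gene with rIL-13 (blue) and rIL-4 (red) against PBS, with bars for the standard error, in microglia (left) and macrophages (right). Filled points passed an adjusted p of 0.05 and are Lgals3 and Fabp5 with rIL-4 and Spp1 with rIL-13, all in microglia.

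Spp1 encodes osteopontin, a secreted ligand of CD44 and of integrins. In microglia of PBS mice 1, 2 and 3 it had 309593, 649049 and 500955 normalized counts (counts divided by the size factors of the 9 libraries of that cell type). The rIL-13 microglia had 139473, 125959 and 157914, and the rIL-4 microglia 185402, 191648 and 278243. All 6 treated libraries were below all PBS libraries, and those of rIL-13 were the lowest. The log2 fold change was -1.78 ± 0.27 (SE) with rIL-13 (edgeR adjusted p = 0.0305) and -1.15 ± 0.27 with rIL-4 (edgeR adjusted p = 0.0660). The rIL-4 change was called by DESeq2 (adjusted p = 0.000349) and, in edgeR, without a filter (adjusted p = 0.0472), with at least 10 counts in every library (0.0400), with all 18 libraries (0.0424) and without PBS mouse 1 (0.0474). The rIL-13 call was lost on leaving out any mouse of that comparison other than PBS mouse 1 (adjusted p of 0.0956 to 0.147 in edgeR), with fold changes of -1.53 to -1.88, and with only the 6 libraries compared (adjusted p = 0.0625 in edgeR). In macrophages Spp1 was the most abundant of the 8 genes, with 1615850, 1665230 and 1903510 normalized counts after PBS. Values were 1178450, 426499 and 998997 after rIL-13 and 1041000, 702398 and 963687 after rIL-4. Again no treated library reached the PBS range, but the spread between treated mice was wide, above all in rIL-13 mouse 6. The log2 fold changes of -0.98 ± 0.34 and -0.93 ± 0.34 did not pass the test (edgeR adjusted p = 0.156 and 0.103), although DESeq2 called both (adjusted p = 0.0259 and 0.0206) and edgeR called that with rIL-4 without a filter and with only the 6 libraries compared (adjusted p = 0.0361 and 0.0224).

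Gpnmb encodes a transmembrane glycoprotein of phagocytes that accumulates when lysosomes are loaded. In PBS macrophages it had 216745, 174218 and 214382 normalized counts. After rIL-13 the values were 107433, 11243 and 57597, and after rIL-4 they were 69186, 16133 and 42888. Every treated macrophage library was below the PBS libraries, and mice 6 and 9 were far below the other treated mice. The libraries of these mice also stood apart in the sum of 10 neutrophil markers, which was 3210 CPM in rIL-13 macrophages of mouse 6 against 604 and 555 CPM in mice 5 and 7, and 919 CPM in rIL-4 macrophages of mouse 9 against 263 and 480 CPM in mice 8 and 10. In PBS macrophages this sum was 1024 to 1665 CPM. The sum of 10 astrocyte markers was 409 CPM in mouse 6 against 66.4 and 116 CPM in mice 5 and 7, and 512 CPM in mouse 9 against 67.9 and 182 CPM in mice 8 and 10, with 28.0 to 32.6 CPM after PBS. This sum does not stand for the whole list. All rIL-13 macrophage libraries were above PBS for 2 of the 10 genes, and all rIL-4 libraries for 1, with 2 below. The median log2 fold change of the markers tested was -0.27 with rIL-13 and -0.54 with rIL-4. The monocyte gene Plac8 was at 173 CPM in mouse 6 and 67.2 CPM in mouse 9, against 4.47 to 30.3 CPM in the other treated macrophages and 25.2 to 98.0 CPM after PBS, and Ly6c2 was at 230 and 204 CPM, against 32.4 to 76.2 CPM and 60.4 to 257 CPM. Both belong to a list of 10 markers of monocyte-derived macrophages. Of the others, Ccr2, Vcan, F10 and Emilin2 were also highest of their group in macrophages of both mice. Fn1 and Itga4 were lowest of their group in both mice, and Ms4a7 and Chil3 were lowest in mouse 6 only. Microglia of mouse 6 held 8397 CPM of the fibroblast and pericyte markers. The part of these differences in the Gpnmb, Spp1 and Cd9 values was not tested. The mean was 0.291 of that of PBS with rIL-13 and 0.212 with rIL-4. Neither log2 fold change, -1.77 ± 0.69 and -2.22 ± 0.70, passed the test (edgeR adjusted p = 0.205 and 0.0603), but the rIL-4 change was called by DESeq2 (adjusted p = 0.0106) and, in edgeR, without a filter (adjusted p = 0.00447) and with only the 6 libraries compared (0.0111), and the rIL-13 change was called without a filter (0.0488). The change with rIL-13 was -1.27 without mouse 6 and -2.55 without mouse 5, and that with rIL-4 was -1.85 without mouse 9 and -2.76 without mouse 8. Among microglia, PBS mice had 7478, 9624 and 6813 normalized counts, rIL-13 mice 8835, 1274 and 4892, and rIL-4 mice 5089, 1644 and 8779. Here the groups overlapped, and mice 6 and 9 were again the lowest. The microglial log2 fold changes were -0.65 ± 0.68 and -0.62 ± 0.68, with 95% intervals of -2.18 to 0.88 and -2.15 to 0.90.

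Lgals3 encodes galectin-3, a lectin that binds galactose-bearing glycans and acts outside the cell and on damaged endosomes. The microglial values were 12612, 22195 and 13579 normalized counts after PBS, 41337, 32002 and 34826 after rIL-13, and 59293, 70700 and 79471 after rIL-4. The 3 groups did not overlap, with PBS lowest and rIL-4 highest. The mean was 2.24 times that of PBS with rIL-13 and 4.33 times with rIL-4. The rIL-4 change of 2.12 ± 0.24 on the log2 scale was called (edgeR adjusted p = 0.00289), and it stayed called without any single mouse (1.97 to 2.41, adjusted p of 0.0247 or less in edgeR). The change with rIL-13 was 1.17 ± 0.23 (edgeR adjusted p = 0.104, but 0.0106 with all 18 libraries, 0.0427 with at least 10 counts in every library and 0.0428 without PBS mouse 2) and the difference between the cytokines was 0.95 ± 0.23 (95% interval 0.43 to 1.47, edgeR adjusted p = 0.224), and neither was called in the edgeR fit used here. Macrophages held much more Lgals3 already after PBS. Their values were 91401, 125992 and 120768 after PBS, 150406, 114594 and 132862 after rIL-13, and 126254, 156734 and 154691 after rIL-4. In normalized counts the rIL-4 libraries were above the PBS range, that of mouse 8 by a small margin, while in CPM mouse 8 (3554) lay below PBS mouse 2 (3569). The log2 fold changes were 0.38 ± 0.18 with rIL-4 (edgeR adjusted p = 0.202) and 0.24 ± 0.18 with rIL-13 (edgeR adjusted p = 0.550).

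Lgals1 encodes galectin-1, which shares the sugar-binding fold of galectin-3. In microglia it had 10198, 16145 and 11174 normalized counts after PBS, 16603, 16719 and 12173 after rIL-13, and 18771, 20628 and 24646 after rIL-4. The rIL-4 libraries were above both other groups, whereas those of rIL-13 overlapped PBS. The rIL-4 change was 0.78 ± 0.21 and was not called (edgeR adjusted p = 0.103). In macrophages the groups overlapped, at 23025 to 32285 after PBS, 30284 to 43222 after rIL-13 and 23549 to 39904 after rIL-4. Their log2 fold changes were 0.45 ± 0.22 with rIL-13 and 0.25 ± 0.22 with rIL-4.

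Fabp5 encodes a cytosolic chaperone that carries fatty acids. Microglia had 8880, 13834 and 9009 normalized counts after PBS and 14058, 11316 and 12080 after rIL-13, and these groups overlapped. After rIL-4 they had 25006, 23097 and 35542, above every other microglial library, and the mean was 2.64 times that of PBS. The log2 fold change was 1.40 ± 0.23 with rIL-4 (edgeR adjusted p = 0.0177) and 0.25 ± 0.23 with rIL-13 (edgeR adjusted p = 1.00). The call with rIL-4 was lost without PBS mouse 1 (1.29, adjusted p = 0.0986 in edgeR) and without PBS mouse 3 (adjusted p = 0.0939 in edgeR). The difference between the cytokines, 1.16 ± 0.23 (95% interval 0.64 to 1.67), was not called in this fit (edgeR adjusted p = 0.139). In macrophages, Fabp5 had 71116 to 97471 after PBS, 73992 to 116948 after rIL-13 and 72341 to 101825 after rIL-4. These ranges overlapped, and the rIL-4 change was -0.03 ± 0.21, with a 95% interval of -0.51 to 0.44.

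Cst7 encodes cystatin F, an inhibitor of cysteine proteases of the endosome and lysosome. In microglia it had 2831, 2082 and 2741 normalized counts after PBS, 3999, 3150 and 3918 after rIL-13, and 4474, 2969 and 3798 after rIL-4. Treated libraries were all above the PBS libraries, by a small margin. The log2 fold changes of 0.54 ± 0.21 and 0.56 ± 0.21 did not pass the test (edgeR adjusted p = 0.576 and 0.222). In macrophages Cst7 was low and its groups overlapped, at 309 to 608 after PBS, 581 to 970 after rIL-13 and 462 to 770 after rIL-4. The log2 fold changes there were 0.76 ± 0.30 with rIL-13 (edgeR adjusted p = 0.206) and 0.27 ± 0.29 with rIL-4 (edgeR adjusted p = 0.616), neither called.

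Cd63 and Cd9 encode tetraspanins, membrane organizers of endosomes, exosomes and the cell surface. Cd63, a tetraspanin of late endosomes, had 25821 to 27816 normalized counts in PBS microglia, 21436 to 31386 in rIL-13 microglia and 23430 to 25302 in rIL-4 microglia. These groups overlapped for rIL-13, while the rIL-4 values were all just below those of PBS, with a log2 fold change of 0.03 ± 0.15 with rIL-13 (95% interval -0.31 to 0.38) and -0.15 ± 0.15 with rIL-4 (-0.49 to 0.20). In macrophages it had 31521 to 37050 after PBS, 28013 to 53882 after rIL-13 and 33490 to 46248 after rIL-4, with changes of 0.31 ± 0.23 and 0.30 ± 0.23. Cd9, a tetraspanin of the cell surface, had a lower mean in treated cells of both types. Its log2 fold changes were -0.68 ± 0.24 and -0.99 ± 0.24 in microglia with rIL-13 and rIL-4 (edgeR adjusted p = 0.522 and 0.0767), and -0.64 ± 0.31 and -0.66 ± 0.31 in macrophages (edgeR adjusted p = 0.323 and 0.197). DESeq2 called the rIL-4 change in microglia. All treated microglial libraries were below the PBS range, at 12534 to 18614 normalized counts after rIL-13 and 8643 to 14950 after rIL-4, against 20649 to 27123 after PBS. In macrophages, PBS mice had 24358, 22716 and 24389 normalized counts, rIL-13 mice 23988, 9562 and 12133, and rIL-4 mice 18808, 11804 and 14322. A single rIL-13 library, that of mouse 5, stayed within the PBS range, and without it the rIL-13 change was -1.13 and was called (edgeR adjusted p = 0.0272).

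In macrophages, none of the 8 genes was called with either cytokine in the edgeR fit used here. Spp1, Gpnmb and Cd9 were called in edgeR under some of the other settings given above. The background there was 14.0% of 13606 genes with rIL-4, 4.19% with rIL-13 and 0.250% for rIL-4 against rIL-13. At an unadjusted p under 0.05 there were 2, 3 and 0 of the 8 genes, beside 27.9%, 17.9% and 11.1% of all genes. DESeq2 called Gpnmb and Spp1 with rIL-4 and Spp1 with rIL-13, all lower than PBS, and 0 between the cytokines, beside 19.6%, 8.55% and 3.09% of all genes. The share of the 8 genes was thus near or below the background with rIL-4 by each of these 3 rules. It was above the background under 2 other edgeR settings. With only the 6 libraries compared, 3 of the 8 were called, where 1927 of 13204 genes were. Without a filter, 2 of the 8 were called, where 2034 of 23333 genes were. Between the cytokines, the log2 fold changes of the 8 genes lay between -0.49 and 0.14. The median log2 fold change of the 8 genes in macrophages was 0.11 with rIL-4 and 0.21 with rIL-13, beside 0.02 and 0.0050 for all genes.

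Between the cell types, Gpnmb, Fabp5, Lgals3, Spp1 and Lgals1 were higher in macrophages than in microglia of the same mice, Cst7 was higher in microglia, and Cd63 and Cd9 differed least after PBS. After PBS, 7 of the 8 genes were called, 1 higher and 6 lower in microglia, where 40.9% of 14715 genes were called. The log2 fold change of Cst7, the gene with more transcript in microglia, was 2.07 ± 0.27 (edgeR adjusted p = 0.000433). Gpnmb was lower in microglia by the widest margin, -4.98 ± 0.19 (edgeR adjusted p = 1.56e-06), and macrophages of PBS mice 1, 2 and 3 held 34.9, 22.2 and 38.0 times the Gpnmb level of their microglia. Fabp5, at -3.33 ± 0.21, Lgals3, at -3.11 ± 0.24, Spp1, at -2.14 ± 0.25, and Lgals1, at -1.45 ± 0.19, followed (edgeR adjusted p of 0.000439 or less). Cd63 differed little, -0.62 ± 0.11 (edgeR adjusted p = 0.00208, and 0.0590 without PBS mouse 3). Cd9, at -0.33 ± 0.13, was not called (edgeR adjusted p = 0.0731) but was with the mouse as a block (-0.34, edgeR adjusted p = 0.0378) and without PBS mouse 1 (-0.44, edgeR adjusted p = 0.0413). After rIL-13, 6 of the 8 were called against 26.7% of 13906 genes, and after rIL-4 7 of the 8 against 23.4% of 13576 genes, again with Cst7 alone higher in microglia. Gpnmb varied more between mice there, and its call was lost without mouse 5 or 7 after rIL-13 (edgeR adjusted p = 0.0639 and 0.172) and without mouse 8 after rIL-4 (edgeR adjusted p = 0.119). The Spp1 call after rIL-13 was lost without mouse 7 (edgeR adjusted p = 0.0508). After rIL-4, the call of Lgals1 was lost without mouse 9 or 10 (edgeR adjusted p = 0.139 and 0.112) and that of Cd63 without mouse 10 (edgeR adjusted p = 0.0642). Cd63 after rIL-13 (-0.84 ± 0.28, edgeR adjusted p = 0.0600) was called without mouse 6 (edgeR adjusted p = 0.0249) and with the mouse as a block (edgeR adjusted p = 0.0492), and Cd9 after rIL-4 (-0.63 ± 0.25, edgeR adjusted p = 0.123) was called with that block (edgeR adjusted p = 0.0155).

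**Figure D4:**
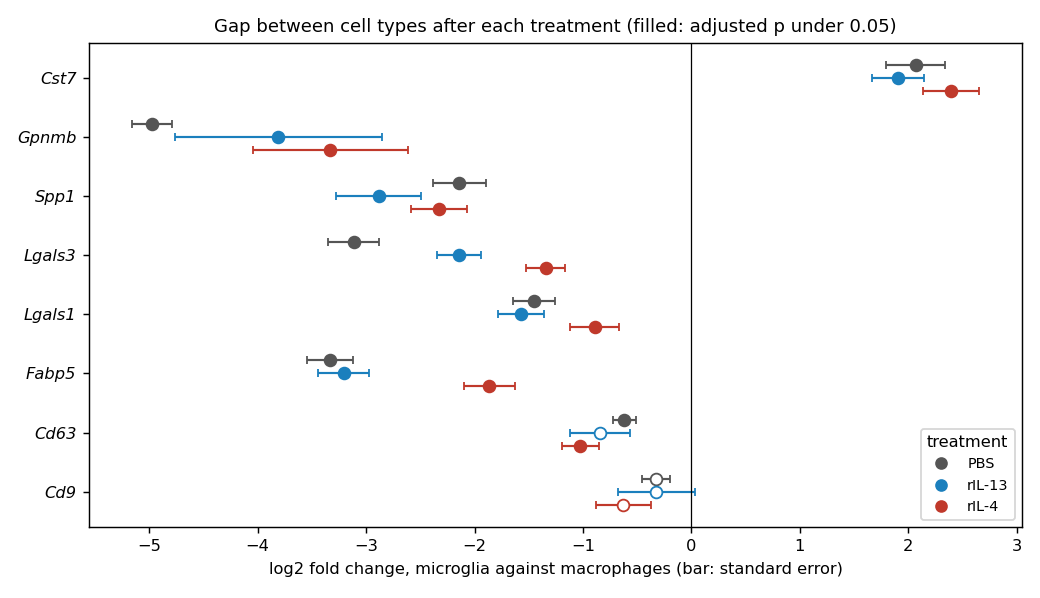
Log2 fold change of microglia against macrophages for each gene after PBS (grey), rIL-13 (blue) and rIL-4 (red), with bars for the standard error and filled points for an adjusted p under 0.05. Points left of 0 are higher in macrophages. The Lgals3 gap goes from -3.11 after PBS to -1.34 after rIL-4, and that of Fabp5 from -3.33 to -1.86.

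Lgals3 differed less between the cell types after rIL-4 than after PBS. PBS macrophages held 8.72, 6.97 and 10.7 times the Lgals3 level of the microglia of the same mouse, rIL-13 macrophages 4.40, 4.46 and 4.54 times, and rIL-4 macrophages 2.62, 2.74 and 2.42 times. The 3 treatments did not overlap in this ratio. The fit of all 18 libraries did not include the mouse as a block. In this fit the rIL-4 response of Lgals3 was larger in microglia than in macrophages by 1.71 ± 0.30 (95% interval 1.08 to 2.35, edgeR adjusted p = 0.0124). Lgals3 was the only one of the 8 genes called, against 0.992% of 16535 genes. At an unadjusted p under 0.05 there were 2 of the 8, beside 12.4% of genes, and DESeq2 called 2, beside 4.14%. That call was lost without mouse 3 (1.56, edgeR adjusted p = 0.117) and without mouse 10 (1.66, edgeR adjusted p = 0.0631). Fabp5 had a similar difference, 1.41 ± 0.33, at the edge of the threshold (edgeR adjusted p = 0.0511), and it was called with the mouse as a block (1.42, edgeR adjusted p = 0.00694), by DESeq2 and with other scaling or filters in edgeR (adjusted p of 0.0208 to 0.0396). For Gpnmb the difference was 1.59 ± 1.05 (edgeR adjusted p = 0.625), with a wide 95% interval of -0.63 to 3.81. For the rIL-13 response, 0 of the 8 genes were called in edgeR, against 0.0242% of genes. At an unadjusted p under 0.05 there was 1 of the 8, beside 5.83% of genes, and DESeq2 called 0, beside 0.901%. Lgals3 there had a difference of 0.93 ± 0.30 (edgeR adjusted p = 0.552).

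The summed level of genes that mark monocyte-derived macrophages was also higher in rIL-4 microglia than in PBS microglia, beside Lgals3 and Fabp5. Ccr2, the chemokine receptor of infiltrating monocytes, was at 10.3 to 28.3 CPM in PBS microglia, an overlapping 22.8 to 63.1 CPM in rIL-4 microglia and 225 to 389 CPM in rIL-4 macrophages. The corresponding values of F10 were 4.65 to 21.8, 62.7 to 141 and 448 to 874 CPM, and those of Ms4a7 were 15.4 to 19.1, 34.0 to 67.8 and 128 to 199 CPM. Of the 10 markers, 3 were called in rIL-4 against PBS microglia by edgeR, all higher, 6 had an unadjusted p under 0.05 and 4 were called by DESeq2, beside 2.22%, 16.4% and 7.79% of all genes. Vcan was not called (edgeR adjusted p = 0.0930), at 5.29 to 11.3 CPM against 18.1 to 20.7 CPM, and Ccr2, Ly6c2, Plac8, Itga4 and Fn1 overlapped the PBS range. Fn1, which made up most of the summed level other than Chil3, was at 639 to 776 CPM in PBS microglia and 723 to 1399 CPM in rIL-4 microglia. The full list of 10 macrophage markers, all detected in every group, summed to 790 to 1127 CPM in PBS microglia, 5554 to 7924 in rIL-13 microglia and 12548 to 22477 in rIL-4 microglia, against 4684 to 6899 in PBS macrophages, 61698 to 84102 in rIL-13 macrophages and 91257 to 117113 in rIL-4 macrophages. Chil3, which is itself a target of IL-4, made up 50.4 to 250.9 CPM of this sum in PBS microglia and 11482 to 20630 CPM in rIL-4 microglia. Without Chil3 the sum was 739 to 944 CPM in PBS microglia, 839 to 1106 in rIL-13 microglia and 1064 to 1847 in rIL-4 microglia, against 6733 to 8271 in rIL-4 macrophages. Gpnmb had the largest difference between the cell types of the 8 genes after PBS. In microglia it was at 37.3 to 202 CPM after rIL-4 against 158 to 222 CPM after PBS. In macrophages Gpnmb was itself at 453 to 1948 CPM after rIL-4 against 4935 to 6105 CPM after PBS. The part of macrophages in the microglial gate in all these levels was not tested.

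Because each mouse gave a library of either cell type, it could be asked whether a mouse with a high level in one cell type had a high level in the other. Log2 CPM was centred within each treatment and cell type, and the 9 mice were compared by an exact permutation test of mice within treatments (216 arrangements, two-sided, smallest possible p of 0.00463), with adjustment over the 8 genes. Lgals1 had a Pearson r of 0.868 (exact permutation p = 0.00463, adjusted 0.0185) and a Spearman rho of 0.917 (exact permutation p = 0.00463, adjusted 0.0123), and r was 0.840 without mice 2 and 10, the farthest from the median. Cd9 had an r of 0.861 (exact permutation p = 0.00463, adjusted 0.0185) and a rho of 0.950 (exact permutation p = 0.00463, adjusted 0.0123), with r of 0.705 without mice 5 and 8. Within treatments, mice with more Lgals1 or Cd9 in their microglia had more in their macrophages as well. Lgals3 had an r of 0.797 (exact permutation p = 0.0556, adjusted 0.111) and a rho of 0.883 (exact permutation p = 0.00463, adjusted 0.0123), with r of 0.750 without mice 1 and 2. Gpnmb had the highest r, 0.900, but did not pass (exact permutation p = 0.0509, adjusted 0.111), with a rho of 0.883 (exact permutation p = 0.0741, adjusted 0.148), and r fell to 0.593 without mice 6 and 9. Those mice had 28.8 and 37.3 CPM of Gpnmb in microglia and 317 and 453 CPM in macrophages, the lowest of all mice in both cell types. Fabp5 had an r of 0.677 and Spp1 of 0.310, and Cd63 and Cst7 had 0.148 and -0.0875 (exact permutation p of 0.0972, 0.245, 0.861 and 0.819).

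**Figure D5:**
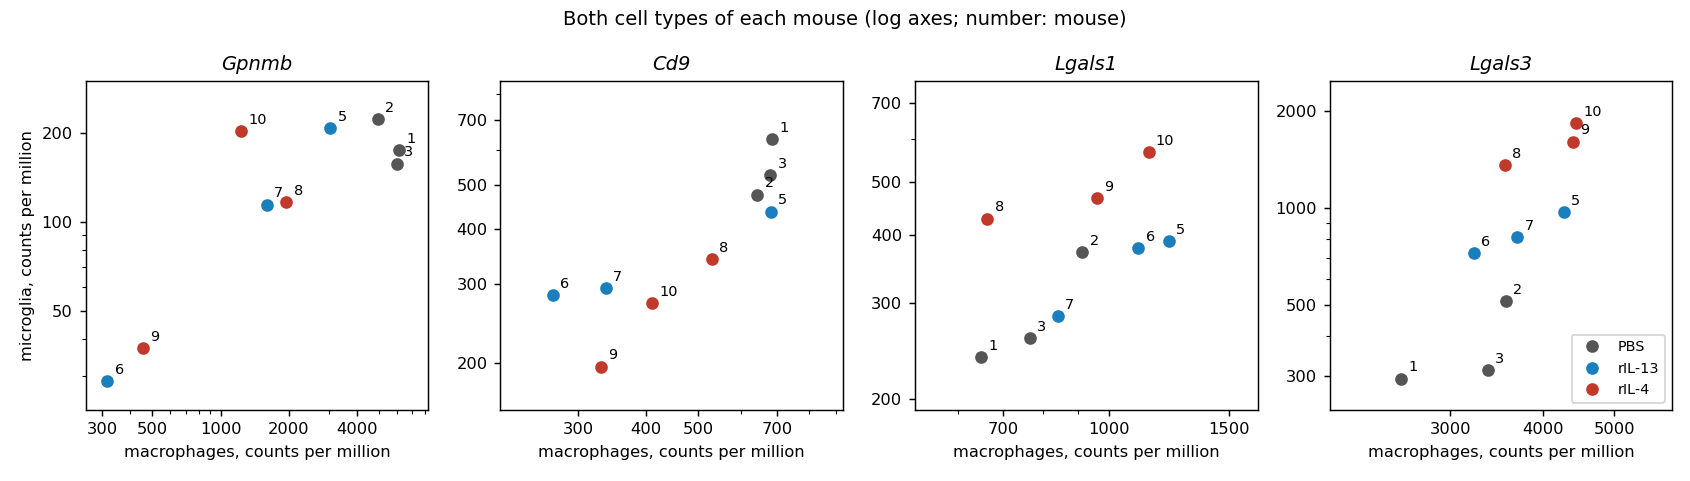
Level in microglia (vertical) against macrophages (horizontal) of the same mouse for Gpnmb, Cd9, Lgals1 and Lgals3, in CPM on log axes, coloured by treatment and labelled with the mouse number. Mice 6 and 9 are lowest for Gpnmb in both cell types, and for Lgals3 the treatments separate along the microglial axis while along the macrophage axis all 3 groups overlap.

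Correlations among the 8 genes were described without a test, and the groups named here were chosen after their values were seen. Over the 9 microglial libraries, which share treatment as well as other sources of variation, log2 CPM of Lgals3, Lgals1 and Fabp5 had Pearson correlations of 0.90 to 0.91 with one another, and in macrophages these were 0.57 to 0.67. Over the 9 macrophage libraries, Gpnmb, Spp1 and Cd9 had correlations of 0.90 to 0.97 with one another, and in microglia these were 0.56 to 0.67. Cst7 went against Spp1 in both, at -0.72 in microglia and -0.62 in macrophages. The genes most like each member were looked for over all 18 libraries after centring each cell type. Gpnmb was most like Gpr137b-ps (r = 0.960) and Ctsb (0.959), and Cd9 was most like Creg1 (0.922) and Ctsd (0.919), where Ctsb and Ctsd encode lysosomal cathepsins. Lgals3 was most like F10 (0.939) and Capg (0.938), Lgals1 was most like Vps29 (0.920) and Mrps17 (0.901), and Fabp5 was most like Ms4a7 (0.892) and Rnh1 (0.885). Cst7 was most like Hmgb1 (0.886) and Vrk1 (0.765), Spp1 was most like Atp2b1 (0.853) and Rnf150 (0.853), and Cd63 was most like Gng11 (0.805) and its own pseudogene Cd63-ps (0.783).

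The other genes of the DAM programme were called in part, where 2.22% of all genes were called with rIL-4 in microglia and 14.0% in macrophages. By DESeq2 these shares were 7.79% and 19.6%, and at an unadjusted p under 0.05 they were 16.4% and 27.9%. With rIL-4 in microglia, none of 9 genes of the earlier step (such as Apoe, Tyrobp, Ctsb and Ctsd) was called by edgeR (4 at an unadjusted p under 0.05, and 3 by DESeq2), with a median log2 fold change of -0.23 beside -0.06 for all genes, and in macrophages 4 of the 9 were lower and none higher, with a median of -0.76. Fth1, a ferritin subunit that stores iron, fell there by 1.49 and Tyrobp, the adaptor of TREM2, by 0.65 on the log2 scale. Of 12 other genes of the later step, 2 were higher and 1 lower in rIL-4 microglia by edgeR (6 at an unadjusted p under 0.05, and 3 called by DESeq2), and 3 were higher and 2 lower in rIL-4 macrophages. Clec7a, the beta-glucan receptor dectin-1, rose by 2.63 in microglia and 2.86 in macrophages, and the chemokine Ccl6 rose by 3.26 and 2.73. Among 12 homeostatic microglia genes, 4 were lower in rIL-4 microglia by edgeR (10 at an unadjusted p under 0.05, and 10 called by DESeq2) and 11 in rIL-4 macrophages (11 unadjusted, and 11 by DESeq2), with medians of -1.51 and -3.13, and none was called higher by edgeR. The purinergic receptor P2ry13 fell by 2.20 and Olfml3 by 1.97 in microglia, and the fractalkine receptor Cx3cr1 fell by 4.58 in macrophages. These genes, and Tmem119 and P2ry12, are also among the microglia markers summed above, so these falls and those sums are not separate observations. Tmem119 fell by 2.26 in microglia and by 3.71 in macrophages (edgeR adjusted p = 0.0218 and 1.87e-05), while P2ry12, also a purinergic receptor, had -1.43 in microglia (edgeR adjusted p = 0.163) and -2.04 in macrophages (edgeR adjusted p = 0.00216). None of 8 TREM2 signalling genes was called by edgeR in rIL-4 microglia (2 at an unadjusted p under 0.05, and 0 by DESeq2), and 5 were lower in rIL-4 macrophages, Vav1 at -0.83 and Plcg2 at -0.74 among them. In macrophages DESeq2 called 5 genes of the earlier step, 6 of the later step and 5 of TREM2 signalling.

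Partners and relatives of each member were counted in the same rIL-4 comparisons, to be read against the 2.22% of all genes called in microglia and 14.0% in macrophages (by DESeq2, 7.79% in microglia and 19.6% in macrophages, and at an unadjusted p under 0.05, 16.4% and 27.9%). For the osteopontin receptors, the integrin chain Itgb5 fell by 1.65 in microglia, the single edgeR call of 9 tested (2 unadjusted, and 2 by DESeq2), and in macrophages Itgb3 rose by 2.45 and Itga5 fell by 0.61 among 8 tested. Among the galectin family, 0 of 5 were called in microglia by edgeR (3 at an unadjusted p under 0.05, and 1 by DESeq2) and 1 of 5, Lgals3bp at -1.03, in macrophages. None of 13 fatty acid binding and lipid droplet genes was called in microglia by edgeR (4 unadjusted, and 2 by DESeq2), and in macrophages 1 was higher and 2 lower, with Plin3, a lipid droplet coat protein, at 0.51 and the lipase Lpl at -1.30. Of the cystatins and the proteases held by cystatin F, 0 of 8 were called in microglia by edgeR (4 unadjusted, and 2 by DESeq2) and 1 of 7 in macrophages, Cst3 at -0.85. Among other tetraspanins, 0 of 15 were called in microglia by edgeR (6 unadjusted, and 5 by DESeq2), and 2 of 14 were higher and 3 lower in macrophages, with Tspan32 at 2.19 and Cd37 at -1.20. Of 10 genes of exosomes and multivesicular bodies, Rab27a alone was called by edgeR in microglia, at -1.62 (2 unadjusted, and 1 by DESeq2), and 0 of 9 in macrophages by edgeR (2 unadjusted, and 1 by DESeq2). Of 12 transcription factors linked to these genes, Bhlhe40 was the single edgeR call in microglia, at 1.05 (5 unadjusted, and 5 by DESeq2), and in macrophages 3 were higher and 1 lower, with Bhlhe40 at 0.98 and Pparg at 1.67. DESeq2 called in macrophages 4 osteopontin receptors, 1 galectin, 5 lipid genes, 3 cystatins or proteases, 6 tetraspanins and 5 transcription factors.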

How the data were processed

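RNA from sorted microglia and macrophages was made into SMART-seq2 libraries, and the authors mapped paired reads to GRCm38 with STAR 2.5.3a and quantified genes with RSEM 1.3.0. The deposited values are expected counts per gene, not normalized, which were rounded to whole numbers. The kit does not mark strand. The study tested each cell type separately with DESeq2, and the same samples were used here in edgeR 4.0.16 (TMM scaling, filterByExpr, glmQLFit): the 9 libraries of a cell type for treatments, the 6 libraries of a treatment for cell types, and all 18 libraries for the difference in response. Calls were made at an adjusted p under 0.05 (Benjamini-Hochberg). The labels name no batch. Normalized counts used size factors of DESeq2 1.42.0, and CPM used TMM over 18 libraries. Exon lengths and positions were taken from GENCODE M21 and promoters from RefSeq. The 8 members and the gene lists were chosen with earlier results of these data known. All 8 members were named in each comparison, and of each other list up to 2 genes called with the lowest p in rIL-4 against PBS in each cell type, with P2ry12 and Tmem119 added for the homeostatic list. A few markers (Ccr2, F10, Ms4a7, Vcan, Plac8, Ly6c2, Itga4, Fn1, Emilin2, Chil3) were named after their values were seen. Samples from the same animal are paired between cell types, although their deviations over all genes correlated weakly (0.0177 to 0.0935 per mouse). The main fits did not include the mouse. Alternatives were DESeq2 size factors, the DESeq2 Wald test, other filters on low counts, other sets of libraries, the mouse as a block, and leaving out each mouse. Test scripts were tested on simulated data.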

Additional observations from a re-analysis of the deposited data

Results flagged for a closer look

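The rIL-4 response of Lgals3 was larger in microglia than in macrophages by 1.71 on the log2 scale in the test of the difference itself, with all 3 rIL-4 microglial libraries above all PBS microglial libraries. Its fold changes were 2.12 in microglia and 0.38 in macrophages. No level of the 8 genes was tested for a library far from its group, since the groups hold 3 mice each.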

How the results depend on the processing

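Of the log2 fold changes of the 8 genes under alternatives other than leaving out a mouse, 477 kept their direction and their side of the threshold, 32 came to pass it, 1 no longer did and 2 reversed. With the DESeq2 Wald test, the number of the 8 genes called was 5 for rIL-4 against PBS, 2 for rIL-13 against PBS and 2 for rIL-4 against rIL-13 in microglia, 2 and 1 for rIL-4 and rIL-13 against PBS in macrophages, and 2 for the cell type difference in the rIL-4 response. With a minimum of 10 counts in every library it was 4 and 2 for rIL-4 and rIL-13 against PBS in microglia and 2 for the difference in the rIL-4 response. Without a filter it was 2 and 1 in macrophages and 2 for that difference, which was also 2 with DESeq2 size factors. With only the 6 libraries compared it was 0 for rIL-13 in microglia and 3 for rIL-4 in macrophages, and with all 18 libraries 2 for rIL-13 against PBS and 1 for rIL-4 against rIL-13 in microglia. The cause was not tested.

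With the mouse as replicate block, 2 of the 8 genes were called for the difference in the rIL-4 response, and 8, 7 and 8 between cell types after PBS, rIL-13 and rIL-4, Cd9 or Cd63 being the added gene. The Cd9 difference in the rIL-13 response turned from -0.05 to 0.049 with the block and to 0.012 without a filter.

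Leaving out 1 mouse in turn gave 1 to 2 calls for rIL-4 and 0 to 1 for rIL-13 against PBS in microglia, 0 to 1 for rIL-13 in macrophages, and 0 to 1 for the difference in the rIL-4 response. The log2 fold changes that changed sign were not called. They ranged from -0.087 to 0.18 for Cd63 with rIL-13 in microglia, from -0.13 to 0.17 for Cst7 and -0.59 to 0.74 for Gpnmb in rIL-4 against rIL-13 in microglia, from -0.20 to 0.062 for Fabp5 with rIL-4 and -0.0031 to 0.33 with rIL-13 in macrophages, and in rIL-4 against rIL-13 in macrophages from -0.99 to 0.31 for Gpnmb, -0.23 to 0.22 for Cd63, -0.28 to 0.46 for Cd9 and -0.27 to 0.34 for Spp1. In the difference in response they ranged from -0.44 to 0.069 for Spp1 with rIL-4, and with rIL-13 from -0.18 to 0.22 for Cd9, -0.12 to 0.28 for Fabp5 and -0.48 to 0.027 for Cst7.

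Counts over all genes moved more. DESeq2 called 1212, 319 and 545 genes for the 3 microglial comparisons, 1163 and 420 for rIL-13 against PBS and rIL-4 against rIL-13 in macrophages, and 685 and 149 for the differences in response. Leaving out a mouse lowered the counts to as few as 75 and 22 for rIL-4 and rIL-13 against PBS in microglia, 1041 and 199 in macrophages, 1197 and 1798 between cell types after rIL-13 and rIL-4, and 18 for the difference in the rIL-4 response. For rIL-4 against rIL-13 it gave 0 to 15 in microglia and 1 to 23 in macrophages, where the count was 209 without a filter and 34 in the fit reported.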
